A study of Homo sapiens with 6 samples.

Results

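The genes described here encode 8 regulators of back-splicing and of circular RNA, ADAR, ADARB1, DHX9, ILF2, HNRNPL, QKI, MBNL1 and ESRP1. They were chosen by gene name, and all 8 were found among the 50868 genes of the table. RNA was sequenced from Huh7 cells, a human hepatoma line, 48 hours after transfection with Lipofectamine 2000. In 3 libraries the cells received a plasmid overexpressing hsa_circ_0098181, a circle from the SOX5 gene, and in 3 they received the control plasmid. All 6 libraries thus came from transfected cells of a single line, and no untransfected cells were analysed here. The question addressed was whether the transcripts of these regulators differed between cells given the circle and cells given the control plasmid.

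Back-splicing joins a downstream 5′ splice site to an upstream 3′ splice site, so that the exons between them close into a circle at the expense of the linear transcript. It is favoured when the introns on both sides of the circle are held together, either by base pairing of inverted repeats such as Alu elements or by RNA-binding proteins that bind both introns. ADAR enzymes edit and the helicase DHX9 unwinds such paired repeats and thereby lower the output of circles. The other proteins named above bind RNA and have each been linked to the formation of circles.

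None of the 7 regulators that could be tested passed the threshold of 0.05 for the adjusted p (quasi-likelihood test of edgeR, Benjamini-Hochberg adjustment), and ESRP1 was too low to be tested. Over all 15055 genes tested the same rule called 0.0399%. None of the 7 had an unadjusted p under 0.05 either, against 5.50% of all tested genes, and DESeq2 called 0 of the 7. HNRNPL was the regulator with the smallest p, and its level was 13.7% higher with the circle. QKI had the largest estimated difference, with a mean fold of 0.770 and overlapping groups. DHX9 was nearly level across the 6 libraries.

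In 3 of the 7 regulators the values of both groups did not overlap, compared with 12.9% of all tested genes. HNRNPL lay above the control in every overexpression library, a pattern found in 6.40% of all genes. ADAR and DHX9 lay below it, as did 6.50% of all genes. With 3 libraries against 3, an exact two-sided permutation test cannot give a p below 0.1, and each of these genes was at that limit. Nothing in the labels said that the replicates came from separate cultures, so the p-values measure the spread between these libraries, which may be technical.

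The promoters of these 3 genes are printed because theirs were the groups that did not overlap. Those of ADARB1, MBNL1 and ILF2 are not printed, so the 3 shown were picked by their values. Each line gives the 250 bases before the first transcription start that the RefSeq promoter table lists for the gene, on build GRCh38.p14, with matches to the motifs below in capitals. The ADAR window is chr1:154627998-154628247 on the minus strand, the DHX9 window is chr1:182839097-182839346 on the plus strand, and the HNRNPL window is chr19:38852348-38852597 on the minus strand.
ADAR: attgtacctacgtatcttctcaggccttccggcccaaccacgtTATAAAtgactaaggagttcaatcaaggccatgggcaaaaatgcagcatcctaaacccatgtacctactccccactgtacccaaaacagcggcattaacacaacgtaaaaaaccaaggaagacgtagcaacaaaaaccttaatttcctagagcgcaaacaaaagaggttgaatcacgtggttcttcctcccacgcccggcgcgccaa
DHX9: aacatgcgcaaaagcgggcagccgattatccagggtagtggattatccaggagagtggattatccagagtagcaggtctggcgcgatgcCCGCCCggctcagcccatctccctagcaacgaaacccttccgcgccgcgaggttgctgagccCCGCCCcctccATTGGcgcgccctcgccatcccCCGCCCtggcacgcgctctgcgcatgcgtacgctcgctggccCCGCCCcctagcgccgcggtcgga
HNRNPL: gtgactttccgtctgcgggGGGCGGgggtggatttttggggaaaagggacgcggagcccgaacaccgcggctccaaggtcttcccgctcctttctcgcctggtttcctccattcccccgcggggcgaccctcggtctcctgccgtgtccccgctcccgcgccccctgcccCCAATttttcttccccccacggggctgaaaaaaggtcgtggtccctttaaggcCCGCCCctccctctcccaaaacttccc

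Matches were searched on both strands for the GC box GGGCGG, the CCAAT box CCAAT and the TATA box TATAAA. The ADAR window held 1 TATA box match and no GC box, and 47.2% of its bases were G or C. The DHX9 window held 4 GC box matches and 1 CCAAT match at 67.6% G or C. The HNRNPL window held 2 GC box matches and 1 CCAAT match at 66.0% G or C. The DHX9 and HNRNPL windows were thus richer in G and C than the median of 58.0% over all 35116 promoters, and the ADAR window was poorer. Of these promoters, 42.6% held a GC box, 32.0% a CCAAT box and 10.7% a TATA box. The table lists further starts for ADAR and HNRNPL, and the matches depend on the start chosen. The ADAR window chr1:154627972-154628221 overlaps the printed one and held the same TATA box match, with 2 CCAAT matches. The ADAR window chr1:154608798-154609047 held a separate TATA box match, with 1 GC box and 1 CCAAT match. The window at the other HNRNPL start (chr19:38849987-38850236) held 2 GC box matches and 3 CCAAT matches. The matches describe letters and were not read as binding sites.

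The depth behind these values was 11130902 to 14138262 counts per library. Levels are given as CPM, the counts of a gene scaled to the size of its library, with TMM factors. SOX5, the gene that holds the circle, was at 1900, 2400 and 2010 CPM in the overexpression libraries and at 41.8, 34.4 and 31.3 CPM in the controls, which fitted the labels (log2 fold change 5.88, SE 0.16, adjusted p = 2.6e-06 in edgeR's quasi-likelihood test). Gene counts do not part circular from linear transcripts, for SOX5 or for the regulators. Liver and hepatoma markers summed to 29000 to 34200 CPM per library, with ALB at 4370 to 5840 CPM and AFP at 10800 to 13300 CPM. Markers of leukocytes, endothelium and fibroblasts were low, and their summed ranges overlapped between the groups. CDH5 was at 0 in every library, while PECAM1 was at 46.9 to 59.1 CPM. In such bulk libraries fewer cells with a transcript and less of it per cell cannot be told apart. Control replicate 1 stood somewhat apart from the rest, with 9.29% of its counts from mitochondrial genes against 6.32 to 7.04% in the other 5 and a mean correlation with them of 0.979 against 0.982 to 0.985.

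ADAR encodes the main adenosine deaminase acting on RNA, which turns adenosine into inosine in double-stranded RNA. In the coordinates of the table (hg38), the gene lies on chromosome 1 from 154582062 to 154627999 on the minus strand. Its level was 351, 373 and 376 CPM with the circle and 468, 393 and 387 CPM with the control plasmid, each time in the order of replicates 1 to 3. Every overexpression library was lower than every control library, but the 2 nearest values of the groups were 376 and 387 CPM, and control replicate 1 was the highest of all. The means were 367 ± 13.8 and 416 ± 45.5 CPM (SD, n = 3 each). The log2 fold change was -0.18 (SE 0.10), a fold of 0.882 with a 95% interval from 0.754 to 1.03. ADAR did not pass the test (adjusted p = 0.797, edgeR's quasi-likelihood test, Benjamini-Hochberg adjustment). Leaving out control replicate 1 gave a log2 fold change of -0.086, and it was -0.103 with a correction for transcript length and GC content.

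ADARB1 encodes ADAR2, a second editing enzyme best known for recoding of neuronal receptor transcripts. It lies on chromosome 21 from 45073853 to 45226560 on the plus strand. Its level was 12.7, 9.35 and 16.4 CPM with the circle and 13.8, 13.5 and 18.0 CPM with the control plasmid. The groups overlapped, with the lowest value in overexpression replicate 2 and the highest in control replicate 3. The mean was 12.8 ± 3.53 CPM against 15.1 ± 2.53 CPM (SD, n = 3 each). The fold was 0.846 with a 95% interval from 0.599 to 1.19 and thus included no difference. The adjusted p was 0.833 in edgeR's quasi-likelihood test. ADARB1 was the least expressed of the tested regulators, with a mean of 173.3 counts per library and a counting error of 7.6%. Its log2 fold change was -0.060 without overexpression replicate 2, -0.094 without control replicate 3 and -0.456 without overexpression replicate 3. The pseudogene SSR4P1, which overlaps ADARB1 on the other strand, held 57 counts over the 6 libraries, against 1040 for ADARB1. ADARB2, a paralog known from the brain, had 0 counts in all 6 libraries.

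ADAR and ADARB1 could be set against each other per length, as CPM per kilobase of merged exons. ADAR was 22.3 to 41.4 times ADARB1 over the 6 libraries. The mean ratio was 31.3 ± 9.11 with the circle and 29.2 ± 6.57 with the control plasmid (SD, n = 3 each; exact permutation p = 0.8). The balance of the editing enzymes therefore showed no difference beyond the spread between replicates.

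DHX9 encodes an RNA helicase that resolves paired Alu repeats, and it lies on chromosome 1 from 182839369 to 182887751 on the plus strand. Its level was 314, 314 and 317 CPM with the circle and 320, 321 and 327 CPM with the control plasmid. The overexpression libraries were all lower, but the highest library was only 4.16% above the lowest. The means were 315 ± 2.01 and 323 ± 3.72 CPM (SD, n = 3 each), and the log2 fold change was -0.03 (SE 0.07, adjusted p = 0.929 in edgeR's quasi-likelihood test). The 95% interval of the fold ran from 0.869 to 1.10. Of 9953 genes with a mean of at least 10 CPM, only 4 had a smaller range over the 6 libraries than the 0.06 of DHX9 on the log2 scale, and the median range was 0.41. Many of these genes have fewer counts than DHX9 and so a larger counting error, and no set of like level was compared. The coefficient of variation of DHX9 over the 6 libraries was 1.53%, about the 1.58% that counting error alone gives for its counts. Both groups of DHX9 were narrow and lay close together. The pseudogene DHX9P1 shared 486 stretches of 31 bases with DHX9 but held only 15 counts over the 6 libraries, against 23966.

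**Figure D1:**
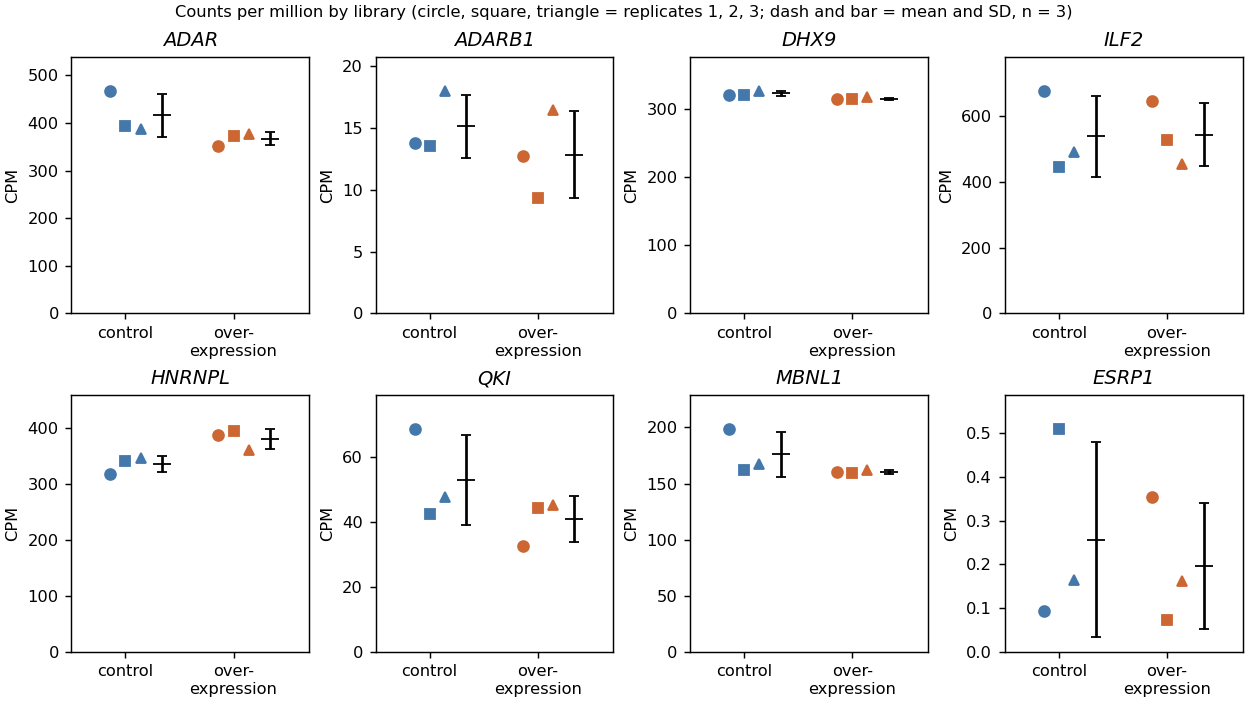
Level of the 8 regulators in CPM on a linear axis from 0, by library, with control in blue and overexpression in orange, marker shape for the replicate, and mean and SD of n = 3 beside the points. ADAR and DHX9 lay lower and HNRNPL higher in all 3 overexpression libraries, while the other genes overlapped between groups.

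ILF2 encodes NF45, a nuclear protein that works within complexes on double-stranded RNA and has been linked to the formation of circles. It lies on chromosome 1 from 153661788 to 153671048 on the minus strand. Its level was 644, 527 and 454 CPM with the circle and 676, 444 and 491 CPM with the control plasmid. Replicate 1 was the highest of each group, and the groups overlapped throughout. The means of 541 ± 95.6 and 537 ± 123 CPM (SD, n = 3 each) were nearly equal, and the log2 fold change was 0.01 (SE 0.18, adjusted p = 0.992 in edgeR's quasi-likelihood test). The 95% interval of the fold was 0.758 to 1.34, and differences within it could not be told from none in these libraries. The gene SNAPIN on the other strand overlaps ILF2 by 43 exon bases and held 1936 counts over the 6 libraries, against 40609 for ILF2. The sign of the ILF2 estimate depended on the libraries used, from -0.132 without overexpression replicate 1 to 0.213 without control replicate 1.

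HNRNPL encodes a splicing factor that binds CA-rich RNA, and it lies on chromosome 19 from 38836388 to 38852347 on the minus strand. Its level was 387, 394 and 360 CPM with the circle and 318, 340 and 346 CPM with the control plasmid. The overexpression libraries were all higher, with the nearest values of the groups at 360 and 346 CPM. The means were 380 ± 17.9 and 334 ± 14.5 CPM (SD, n = 3 each). The log2 fold change was 0.19 (SE 0.08), a fold of 1.14 with a 95% interval from 0.998 to 1.30. HNRNPL did not pass the test (adjusted p = 0.797, edgeR's quasi-likelihood test, Benjamini-Hochberg adjustment). Its unadjusted p in that test was 0.0533, and 5.92% of all tested genes had a smaller one. The log2 fold change stayed between 0.152 and 0.224 when any 1 library was left out.

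Some reads of HNRNPL could belong to other genes. The pseudogene HNRNPLP2 shared 590 stretches of 31 bases with HNRNPL and held 2229 counts over the 6 libraries, against 27078 for HNRNPL. HNRNPLP2 itself had a log2 fold change of -0.14 (adjusted p = 0.83, edgeR's quasi-likelihood test), and with the counts of both summed the log2 fold change was 0.160. The overlapping gene AC104534.3 shared 561 exon bases and held only 30, 0 and 13 counts with the circle and 2, 0 and 11 with the control plasmid. A further gene within HNRNPL, AC008982.2, held 74 counts in all. The paralog HNRNPLL was at 33.8 ± 0.992 and 34.9 ± 2.21 CPM (SD, n = 3 each). Its log2 fold change was -0.05 (adjusted p = 0.925, edgeR's quasi-likelihood test). Per length, HNRNPL was 9.80 ± 0.736 times HNRNPLL with the circle and 8.34 ± 0.571 times with the control plasmid (SD, n = 3 each; exact permutation p = 0.2).

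QKI encodes quaking, a STAR-family protein that binds ACUAA-type elements and brings the introns around exons together. It lies on chromosome 6 from 163414000 to 163578596 on the plus strand. Its level was 32.6, 44.3 and 45.2 CPM with the circle and 68.6, 42.4 and 47.6 CPM with the control plasmid. The lowest value was in overexpression replicate 1 and the highest in control replicate 1, while the 4 other libraries lay between 42.4 and 47.6 CPM. The groups overlapped, and the means were 40.7 ± 7.07 and 52.9 ± 13.8 CPM (SD, n = 3 each). The log2 fold change was -0.38 (SE 0.20), a fold of 0.770 with a 95% interval from 0.561 to 1.06 (adjusted p = 0.797, edgeR's quasi-likelihood test). It moved with single libraries and was -0.145 without control replicate 1 and -0.239 without overexpression replicate 1. QKI was the most variable of the 7 tested regulators, with a range of 1.06 on the log2 scale over the 6 libraries.

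MBNL1 encodes muscleblind, which binds YGCY-type motifs and is known for a circle that its own gene makes. It lies on chromosome 3 from 152243828 to 152465780 on the plus strand. Its level was 160, 159 and 162 CPM with the circle and 199, 162 and 167 CPM with the control plasmid. The groups met at 162 CPM, and control replicate 1 stood above the 5 other libraries. The means were 160 ± 1.75 and 176 ± 20.2 CPM (SD, n = 3 each). The log2 fold change was -0.13 (SE 0.10), a fold of 0.912 with a 95% interval from 0.779 to 1.07 (adjusted p = 0.805, edgeR's quasi-likelihood test). It was -0.033 without control replicate 1 and -0.052 with the length and GC correction. The antisense gene MBNL1-AS1 overlaps MBNL1 and held 53 counts against 12584. The handling of strand was not given in the sources used here, so reads of both cannot be told apart with certainty.

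The paralogs of MBNL1 were expressed too. MBNL2 was at 22.7, 30.8 and 28.1 CPM with the circle and at 47.1, 33.0 and 38.2 CPM with the control plasmid, all lower in the overexpression libraries. Its log2 fold change of -0.54 (SE 0.17) had an adjusted p of 0.797 in edgeR's quasi-likelihood test. The MBNL2 value ran from -0.387 to -0.649 when 1 library was left out and was -0.500 with the length and GC correction. MBNL3 was at 260 ± 17.2 and 295 ± 35.3 CPM (SD, n = 3 each), and its log2 fold change of -0.18 did not pass the test either (adjusted p = 0.797, edgeR's quasi-likelihood test). The value for MBNL3 was -0.095 without control replicate 1 and -0.052 with the length and GC correction. Per kilobase of merged exons, MBNL3 was 1.26 to 1.46 times MBNL1 in the 6 libraries and led the muscleblind transcripts on this scale. The deposited FPKM values imply a length 2.79 times the merged exon length for MBNL1, and the order was not checked with them. MBNL1 was 2.95 ± 0.475 times MBNL2 with the circle and 2.21 ± 0.178 times with the control plasmid (SD, n = 3 each). These ratios did not overlap between the groups, and the exact permutation p was 0.1, the smallest possible.

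ESRP1 encodes an epithelial splicing regulator, and it lies on chromosome 8 from 94641074 to 94707466 on the plus strand. It had 5, 1 and 2 counts with the circle and 1, 6 and 2 counts with the control plasmid. In 4 of 6 libraries it was at or under the floor of 3 counts, which covers counting error only and corresponds to 0.212 to 0.277 CPM. The sums of 8 and 9 counts gave a ratio of 0.762 with a counting interval from 0.256 to 2.23, so a difference was not detectable at this depth. The epithelial splicing regulator that these cells did express was ESRP2. It was at 28.7, 29.2 and 25.3 CPM with the circle and 34.6, 32.4 and 36.2 CPM with the control plasmid, all lower in the overexpression libraries. Its log2 fold change of -0.31 (SE 0.11) had an adjusted p of 0.797 in edgeR's quasi-likelihood test. The ESRP2 value ran from -0.250 to -0.353 when 1 library was left out and was -0.350 with the length and GC correction.

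**Figure D2:**
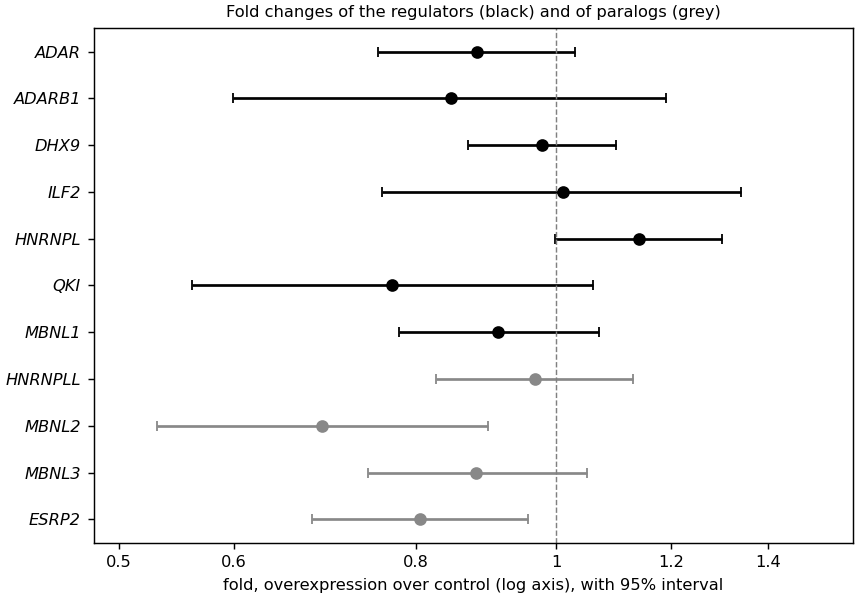
Fold of overexpression over control on a log axis, with 95% intervals from edgeR's quasi-likelihood fit, for the 7 tested regulators (black) and for tested paralogs of HNRNPL, MBNL1 and ESRP1 (grey). All 7 regulator intervals include 1, with that of HNRNPL starting at 0.998, while those of MBNL2 and ESRP2 lie below 1 before adjustment over all genes.

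Per length, the regulators covered a wide range of levels in Huh7 cells. The mean in the control libraries was 236 CPM per kilobase of merged exons for ILF2, above 57.1 for DHX9, 49.0 for HNRNPL and 42.9 for ADAR. MBNL1 followed at 17.6, QKI at 3.04, ADARB1 at 1.50 and ESRP1 at 0.0525 CPM per kilobase. In the control libraries every DHX9 value (56.7 to 57.9) lay above every HNRNPL value (46.6 to 50.7), while in the overexpression libraries HNRNPL (52.8 to 57.7) overlapped with DHX9 (55.6 to 56.2). HNRNPL overlapped with ADAR in the control libraries (39.9 to 48.3 for ADAR) but lay above it in the overexpression libraries (36.2 to 38.8 for ADAR). The other neighbours did not overlap over the 6 libraries on this scale, with the closest gap between the lowest QKI value of 1.87 and the highest ADARB1 value of 1.79 CPM per kilobase. The deposited FPKM values gave the same order of the 8 control means, but there QKI (from 0.927) and ADARB1 (up to 1.18) overlapped, and DHX9 (from 40.8) was apart from HNRNPL (up to 35.8) in all libraries. Which of these neighbours were apart thus depended on the gene length used. Among the paralogs, the control means were 24.2 for MBNL3, 8.03 for MBNL2, 6.19 for ESRP2 and 5.89 for HNRNPLL on the same scale.

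**Figure D3:**
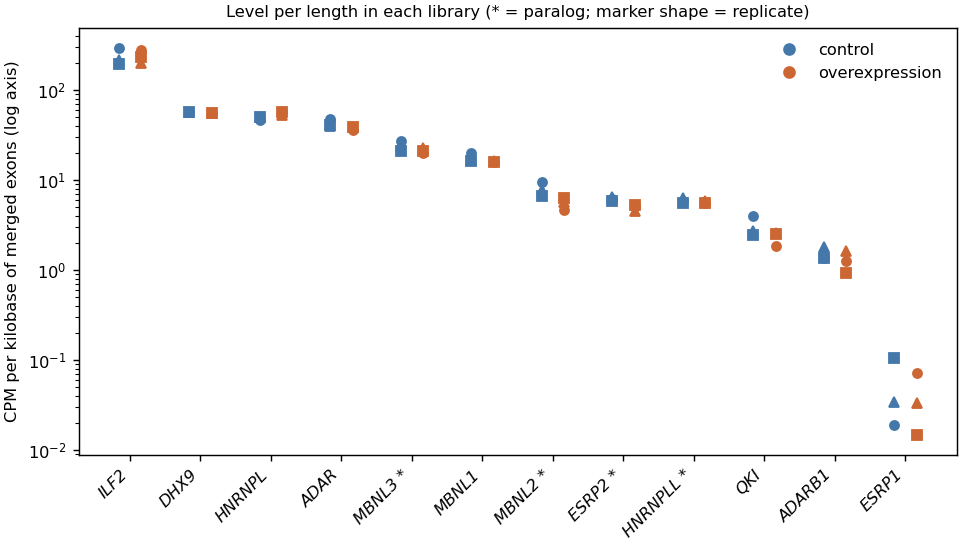
Level of the 8 regulators and of 4 paralogs (starred) in CPM per kilobase of merged exons on a log axis, with 1 point per library, control in blue and overexpression in orange. ILF2 lay highest at 195 to 297 and ESRP1 lowest at 0.0146 to 0.105, and for most genes the groups lay close together compared with the differences between genes.

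The estimates of the regulators went both ways. Of the 7 tested, 2 had a higher and 5 a lower estimate with the circle, and the median log2 fold change was -0.133. Over all tested genes the median was 0.002, with 7601 estimates higher and 7454 lower. The median of the 7 was -0.038 without control replicate 1, -0.060 without overexpression replicate 2 and -0.052 with the length and GC correction, under which 1 estimate was higher and 6 lower. Control replicate 1 was the highest library for ADAR, ILF2, QKI and MBNL1 and the lowest for HNRNPL. It was also the highest for 28.8% of the 9953 genes with a mean of at least 10 CPM. The median deviation of the 7 regulators from their own means was 0.248 in that library on the log2 scale and between -0.067 and -0.008 in the other 5. The part of its mitochondrial share in these values was not tested.

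**Figure D4:**
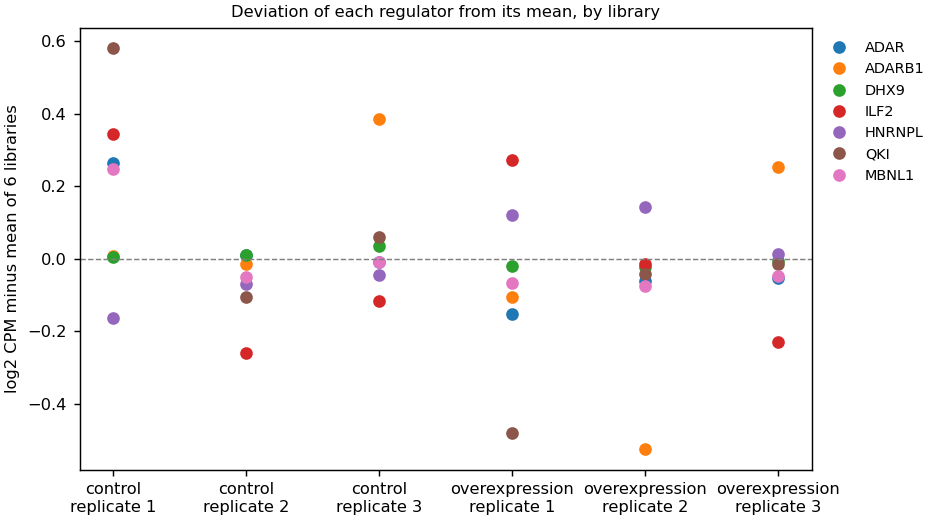
Deviation of each of the 7 tested regulators from its own mean over the 6 libraries, in log2 CPM, by library. In control replicate 1 QKI, ILF2, ADAR and MBNL1 lay above 0 and HNRNPL below it, and DHX9 lay near 0 in every library.

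The gene with the most similar pattern over the 6 libraries was found for each tested regulator among 9952 others with a mean of at least 10 CPM, as the root mean square difference of centred log2 values. DHX9 was nearest to DHX36 (0.019), another helicase of the DEAH family, and MBNL1 to the pseudogene HNRNPA3P6 (0.019). ADAR was nearest to TRIP11 (0.022), HNRNPL to FAAP20 (0.024) and ILF2 to the pseudogene FTH1P7 (0.065). The more variable QKI and ADARB1 had more distant neighbours, BPTF (0.070) and ZNF780B (0.087). The value is a description over 6 libraries, and many genes lie close to a flat pattern.

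Further genes that act around back-splicing were summarised by 6 lists with 107 genes in all, of which 101 were tested. None was called by edgeR's quasi-likelihood test at an adjusted p of 0.05, and DESeq2 also called 0. At an unadjusted p under 0.05 there were 5 of the 101, compared with 5.50% of all tested genes in either direction. These 5 were YTHDC1, MBNL2, ESRP2, FOXO3 and ITCH, all lower with the circle, and 3.08% of all tested genes were lower at that level. Over the lists together 40 estimates were higher and 61 lower, but with the length and GC correction 52 were higher and 49 lower, and 2 had an unadjusted p under 0.05. Over all alternatives that number was 2 to 9. ITCH, a ubiquitin ligase gene that hosts a circle, was named after its values were seen, at 103 ± 2.58 against 120 ± 3.97 CPM (SD, n = 3 each).

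Other RNA-binding proteins linked to back-splicing were tested for 17 of 18 genes, with 11 estimates higher, 6 lower and a median log2 fold change of 0.053. With the length and GC correction 15 were higher and 2 lower. The smallest p in each direction was that of NONO, a paraspeckle protein, at 262 ± 61.5 against 206 ± 15.8 CPM, and of PTBP1, a polypyrimidine tract binding protein, at 259 ± 16.3 against 333 ± 93.5 CPM (SD, n = 3 each). The log2 fold changes were 0.35 for NONO and -0.36 for PTBP1, both with an adjusted p of 0.797 in edgeR's quasi-likelihood test. Each moved with 1 library. NONO was at 0.138 without overexpression replicate 2 and PTBP1 at -0.106 without control replicate 2.

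Spliceosome and cleavage factors, whose depletion is known to favour circles over linear transcripts, were tested for 20 of 20 genes. There were 9 higher and 11 lower estimates, and the median was -0.036. SNRPB, a core snRNP protein, had a log2 fold change of 0.32 and PRPF8, which sits at the catalytic centre, of -0.23, both with an adjusted p of 0.797 in edgeR's quasi-likelihood test. SNRPB was at 203 CPM in control replicate 1 and at 348 to 389 CPM in the other 5 libraries, and its log2 fold change was 0.106 without that library. The value for PRPF8 was -0.148 without overexpression replicate 1.

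Genes for export, m6A and turnover of circles and lariats were tested for 22 of 23, with 13 higher, 9 lower and a median of 0.037. YTHDC1, a nuclear m6A reader, was at 179 ± 11.3 against 211 ± 18.7 CPM (SD, n = 3 each). On the log2 scale its fold change was -0.23, and that of METTL3, the m6A methyltransferase, was 0.17. The adjusted p was 0.797 for both in edgeR's quasi-likelihood test, and METTL3 was at 0.080 without control replicate 1. The proteins with a double-stranded RNA-binding domain, the domain that ADAR and DHX9 share, had 5 higher and 10 lower estimates over 15 of 16 genes and a median of -0.070. TARBP2 (0.32) and DICER1 (-0.28), partners in microRNA processing, had the smallest p in each direction and both an adjusted p of 0.797 in edgeR's quasi-likelihood test. TARBP2 was at 0.179 without control replicate 1, and DICER1 at -0.166 without overexpression replicate 1 and -0.154 with the length and GC correction. The paralogs of the regulators had 1 higher and 7 lower estimates over 8 of 11 genes and a median of -0.115, with MBNL2 (-0.54) at the lower end. With the length and GC correction the medians of these 2 lists were -0.035 and -0.044, while MBNL2 was at -0.500 and ESRP2 at -0.350.

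Host genes of widely studied circles were tested for 23 of 24, with 3 higher and 20 lower estimates and a median of -0.111. FOXO3 was at 56.4, 36.5 and 35.1 CPM with the circle and at 69.0, 60.0 and 58.4 CPM with the control plasmid, all lower in the overexpression libraries. Its log2 fold change was -0.55 (SE 0.18, adjusted p = 0.797 in edgeR's quasi-likelihood test). The FOXO3 value moved with single libraries, from -0.802 without overexpression replicate 1 to -0.425 without overexpression replicate 3. It was -0.451 with the length and GC correction. PVT1 was the gene with the smallest p among the higher ones, at 0.45 (adjusted p = 0.797, edgeR's quasi-likelihood test) from means of 2.09 ± 0.355 and 1.53 ± 0.24 CPM (SD, n = 3 each). The split of the host genes depended on the length and GC correction, under which 10 were higher and 13 lower with a median of -0.029.

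**Figure D5:**
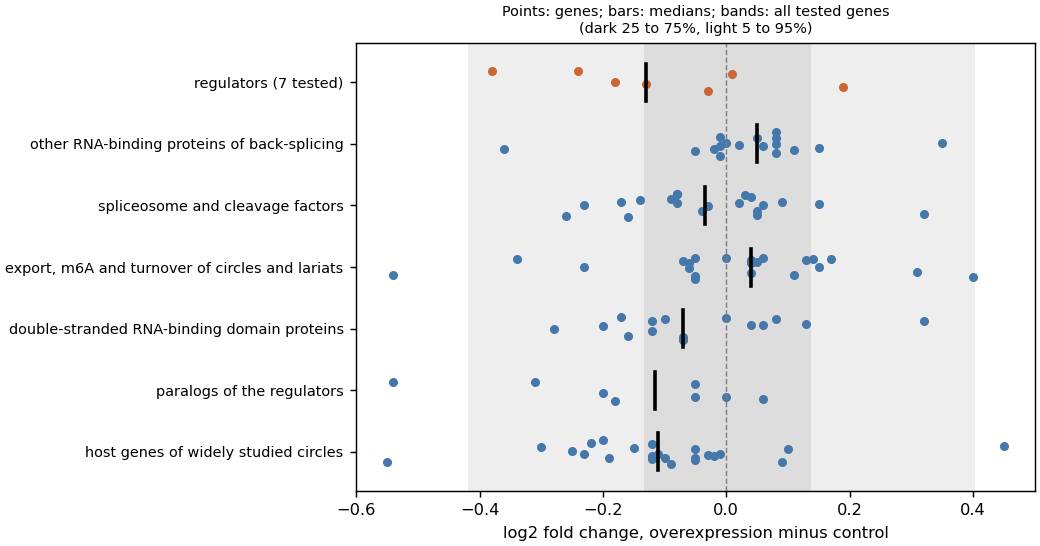
Log2 fold change, overexpression minus control, of each tested gene in the 6 lists (blue) and of the 7 tested regulators (orange), with black bars at the medians and grey bands for all 15055 tested genes (25 to 75%, and 5 to 95% from -0.42 to 0.40). The medians lie between -0.133 and 0.053. The inner band of -0.13 to 0.14 is the spread of single genes, so it is no measure for the medians of lists.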

How the data were processed

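Total RNA of 6 Huh7 libraries was sequenced, and the sample titles gave each library's group and replicate number. Raw read counts and FPKM values per gene and library were deposited by the authors in 1 table. The submitters' processing notes name TopHat2 2.0.9 and the build hg38. The counting tool, strand handling and annotation release are not given in the sources used here. Coordinates are those of the table, and exon lengths, overlaps and transcripts came from GENCODE 29. The deposited FPKM values imply gene lengths of 1.35 to 2.79 times the merged exon length for the regulators, so levels per length were computed from counts.

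Counts were tested with edgeR 4.0.16 (R 4.3.3) after filterByExpr at 10 counts and TMM, by glmQLFit and a two-sided glmQLFTest, with Benjamini-Hochberg adjustment over 15055 genes. The biological coefficient of variation was 16.1%. Within groups, chi-square per degree of freedom was 10.1 to 20.9, so no pair of libraries was alike within sampling noise. Exact permutation tests used log2(CPM + 0.5), or the ratio itself. Genes counted as sharing sequence if at least 50 stretches of 31 bases were identical. The code was tested on simulated data.

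The regulators and lists were chosen with earlier results of these data known. Also named were SOX5, paralogs, overlapping genes with at least 10 counts, the gene nearest in pattern, and the smallest p per direction in each list. The values of 1 list gene and 1 marker gene are not reported here but entered the counts and sums. Alternatives were normalization by RLE or by upper quartile, DESeq2 1.42.0, no filter beyond 1 count, a mean of at least 50 counts, a replicate block, leaving out each library, and, added after seeing the data, a length and GC correction by splines and HNRNPL summed with HNRNPLP2.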

Additional observations from a re-analysis of the deposited data

How the results depend on the processing

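No regulator and no gene of the 6 lists was called at an adjusted p of 0.05 under any alternative that was run. Over all genes, 6 were called by edgeR and 28 by DESeq2, and 4 to 16 when 1 library was left out. At an unadjusted p under 0.05 the number of regulators was 0, and it was 1, HNRNPL, under upper-quartile normalization, under a mean of at least 50 counts and under the length and GC correction. When 1 library was left out it was 0 to 1, the 1 being QKI without control replicate 2. The adjusted p of HNRNPL and of QKI in edgeR's or DESeq2's fit ran from 0.669 to 0.999 over the alternatives. The sign turned for ILF2, which ran from -0.132 to 0.213 when 1 library was left out and was -0.048 under the length and GC correction, and for HNRNPLL, which ran from -0.091 to 0.002. The causes were not tested. SOX5 kept its call, with log2 fold changes of 5.772 to 6.003. With a replicate block 4 genes were called in all and 0 regulators. Over all tested genes, libraries with the same number did not deviate together (correlations of -0.036, -0.023 and -0.031). No pairing by number was thus seen, but counting noise in genes with few counts lowers such correlations, so they cannot exclude one. Depth limits ESRP1 most, with a counting error of 59.4%. ADARB1 was next at 7.6%, but its coefficient of variation over the 6 libraries was 21.6%, above counting error alone.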
